A study of Mus musculus with 16 samples.

Results

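The left ventricle of control mouse embryos was followed here from E14.5 to E17.5 (embryonic day) in 4 of the 16 RNA-seq libraries of the series. They were picked by their labels, as the control left ventricles of the E17.5 litter (2 embryos) and of the E14.5 litter (2 embryos). The left ventricle of 1 control embryo of E13.5 is shown as an earlier level and entered no comparison. Each library is total RNA of 1 left ventricle of a C57BL/6 embryo, read from a TruSeq library, and the labels name no treatment. The embryos are littermates of animals with hypoplastic left heart syndrome (HLHS), in which the left side of the heart stays too small, and the right ventricles of the same hearts were sequenced too. The alleles that the control littermates carry are not stated in the labels. Each stage is a single litter, and the titles of the E14.5 embryos have the prefix 635AP while those of E13.5 and E17.5 have 635, so stage, litter and this prefix cannot be told apart. The adjusted p-values below therefore measure the spread between embryos of a litter. Within each stage, embryo 2 and embryo 3 differed in sex by Xist and Ddx3y, with 1 female and 1 male at E14.5 and the same at E17.5.

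In this window the ventricle wall thickens and its muscle cells take up the proteins of the working heart. As background, cardiomyocytes of the mid-gestation heart divide, contract with a mixture of fetal and adult-type proteins and rely much on glucose and lactate. Towards birth they divide less, their mitochondria mature, and the use of fatty acids starts to rise. The labelled tissue matched its markers. Hand1, a transcription factor of the left ventricle, had 14.1 to 23.7 normalised read counts (CPM, scaled to library size) in the 4 left libraries and 2.03 to 4.83 CPM in the right ventricles of the same embryos, with no overlap. Cardiac troponin T and cardiac actin, Tnnt2 and Actc1, were present in each library, with 2583 to 3473 CPM and 3916 to 5064 CPM in those 4. Total counts ran from 24152831 to 28648645 in the 4 libraries, and the E13.5 library had 18179762. Replicate embryos differed by far more than sampling noise, with a chi-square per degree of freedom of 7.01 at E14.5 and 8.69 at E17.5.

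Of 15441 genes with enough counts to be tested, 5834 (37.8%) differed between E17.5 and E14.5 at an adjusted p under 0.05 (edgeR's quasi-likelihood test, Benjamini-Hochberg adjustment over all genes tested). Expression was higher at E17.5 for 3100 genes (20.1%) and lower for 2734 (17.7%). Most changes were modest, since 374 of the rises and 528 of the falls reached 2-fold. The median log2 fold change over all genes tested was -0.01. These percentages are the background for every list below, where "rose" and "fell" are used of genes past this threshold. The balance of rises and falls depends on the scaling of the libraries. Without normalisation factors 6320 genes passed, 2137 higher and 4183 lower, which is 33.8% higher against 53.1%, and the median of all genes was -0.11. The longest transcripts tended to rise and the shortest to fall, with medians of 0.12 and -0.12 in the longest and the shortest of 5 equal groups of genes. Its part in the lists below was measured by a fit with length and GC offsets per library, in which 5380 of the 5834 calls remained with the same direction.

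**Figure D1:**
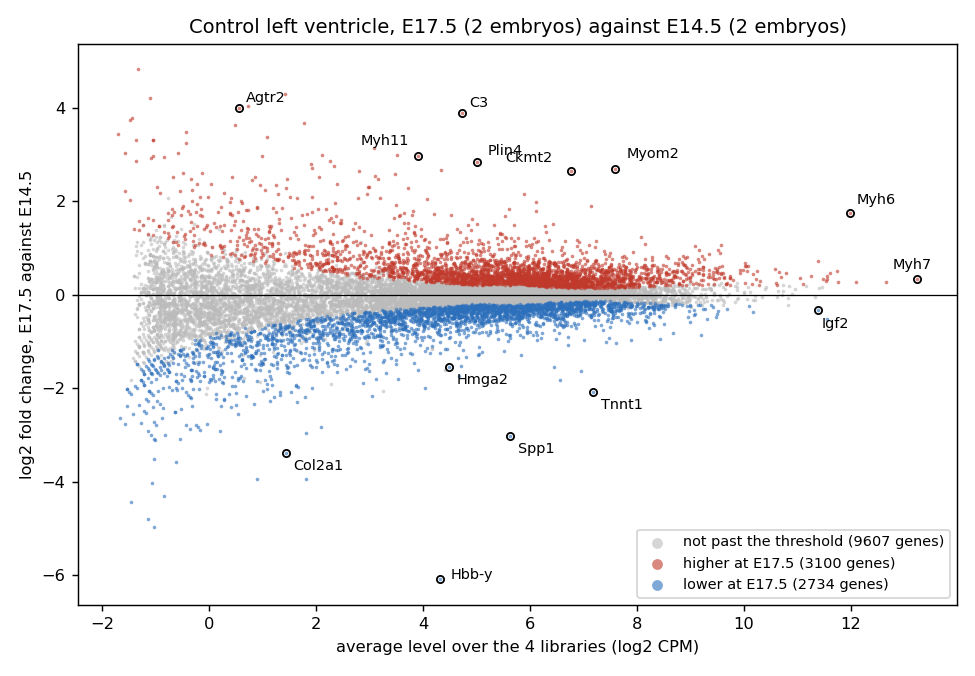
Log2 fold change from E14.5 to E17.5 in control left ventricle (y axis) against the average level in log2 CPM (x axis), 1 point per gene tested, red for the 3100 genes higher and blue for the 2734 genes lower at an adjusted p under 0.05. Hbb-y lies lowest at -6.09, and Myh6 is the gene with a large rise among those of the highest level.

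The largest rises among genes of at least moderate level were spread over several cell types. Complement component C3 had 2.97 and 3.77 CPM at E14.5 and 65.2 and 36.9 CPM at E17.5, the largest of these rises (14.8-fold, log2 fold change 3.89 ± 0.29 (SE), adjusted p = 1.64e-04). Its E17.5 embryos differed widely. Collagen Col5a3 rose 8.81-fold, the surface antigen Ly6c1 7.93-fold, smooth muscle myosin Myh11 7.81-fold and the lipid droplet protein Plin4 7.11-fold. Ly6c1 has a near-identical neighbour, so its reads may be shared. Among muscle genes, the M-band protein Myom2 had 49.2 and 54.7 CPM at E14.5 and 404 and 277 CPM at E17.5 (log2 fold change 2.69 ± 0.16 (SE), adjusted p = 8.88e-05). Mitochondrial creatine kinase Ckmt2, which links energy made in mitochondria to the contractile apparatus, had 28.4 and 31.5 CPM at E14.5 and 203 and 178 CPM at E17.5 (log2 fold change 2.65 ± 0.08 (SE), adjusted p = 8.59e-06). Each E17.5 library of Myom2 and Ckmt2 lay more than 5-fold above each E14.5 library. The remaining genes among the 12 largest rises were Trabd2b, Mylk4, Steap4, Phyhip and Lrrc2, at 2.67, 2.57, 2.55, 2.48 and 2.28 on the log2 scale.

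The embryonic globin Hbb-y fell most, from 45.5 and 32.2 CPM to 0.211 and 0.917 CPM (log2 fold change -6.09 ± 0.36 (SE), adjusted p = 8.58e-05), and had 97.2 CPM in the E13.5 library. The E17.5 libraries rest on 5 and 23 counts of this gene. Slow skeletal troponin T, Tnnt1, had 480.4 CPM at E13.5, 209 and 263 CPM at E14.5 and 59.2 and 53.1 CPM at E17.5 (log2 fold change -2.09 ± 0.10 (SE), adjusted p = 6.52e-05). Calponin Cnn1, a fetal heart and smooth muscle protein, fell from 154 and 141 to 36.0 and 48.3 CPM (log2 fold change -1.82 ± 0.12 (SE), adjusted p = 1.27e-04). Other large falls were Slitrk5 (-2.16), the matrix protein Npnt (-1.99), the homeobox gene Prrx2 (-1.81), Arnt2 (-1.80), the insulin-like growth factor binding protein Igfbp2 (-1.75), Hap1 (-1.69), the antisense transcript Atcayos (-1.63) and the kinase Rps6ka6 (-1.62). Reads of Atcayos cannot be told from those of its sense partner without strand. Osteopontin, Spp1, is a case apart, because 1 library sets its fall. It had 17.4 and 159 CPM at E14.5 and 16.0 and 5.86 CPM at E17.5 (log2 fold change -3.03 ± 0.89, adjusted p = 0.0314), so that E14.5 embryo 2 was close to E17.5 embryo 2, and without E14.5 embryo 3 the call was lost at a log2 fold change of -0.70. It was lost without E17.5 embryo 3 as well.

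Genes of the working contractile apparatus rose, while several fetal partners fell. Of 23 tested members of the adult-type sarcomere list 19 rose and none fell, with a median log2 fold change of 0.38. The fast cardiac myosin heavy chain Myh6, which is the main myosin of the adult mouse ventricle, had 3454 CPM at E13.5, 1999 and 1698 CPM at E14.5 and 6924 and 5712 CPM at E17.5. The E17.5 levels were above those of both earlier stages, and the E14.5 levels were below the E13.5 level. The rise from E14.5 was 3.37-fold (log2 fold change 1.75 ± 0.12 (SE), adjusted p = 1.17e-04). Myh7, the slow myosin of the fetal ventricle, had 9236 and 8061 CPM at E14.5 and 10786 and 11202 CPM at E17.5, a small rise of 1.25-fold (adjusted p = 0.0153) that was lost without E14.5 embryo 3 and with both ventricles summed (largest adjusted p over the alternatives 0.0949). Reads from stretches that the 2 myosin genes share cannot be assigned with certainty.

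Cardiac troponin I, Tnni3, the adult inhibitory subunit, rose from 806 and 791 CPM to 1231 and 1092 CPM (log2 fold change 0.52 ± 0.08 (SE), adjusted p = 0.00204). The fetal form Tnni1 stayed between 1532 and 1726 CPM and did not pass the test (log2 fold change 0.08 ± 0.07 (SE), adjusted p = 0.356). Other rises were the Z-disc proteins Pdlim5 (0.69), Ldb3 (0.61) and Myoz2 (0.50), titin Ttn (0.50) and myosin binding protein C, Mybpc3 (0.46). In the list of fetal and skeletal-type sarcomere genes, 3 of 16 tested rose and 6 fell, with a median of -0.18. Without E14.5 embryo 2 the counts were 4 and 4 with a median of -0.02, and without E14.5 embryo 3 they were 1 and 7 with a median of -0.31. Along with Tnnt1 and Cnn1, the falls were the atrial and fetal light chains Myl4 and Myl7, tropomyosin Tpm2 and transgelin Tagln. Myl4 had 819 and 698 CPM at E14.5 and 373 and 474 CPM at E17.5 (log2 fold change -0.86 ± 0.13 (SE), adjusted p = 0.00196). Skeletal actin Acta1, a gene of the fetal heart, was at -0.16 and did not pass.

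**Figure D2:**
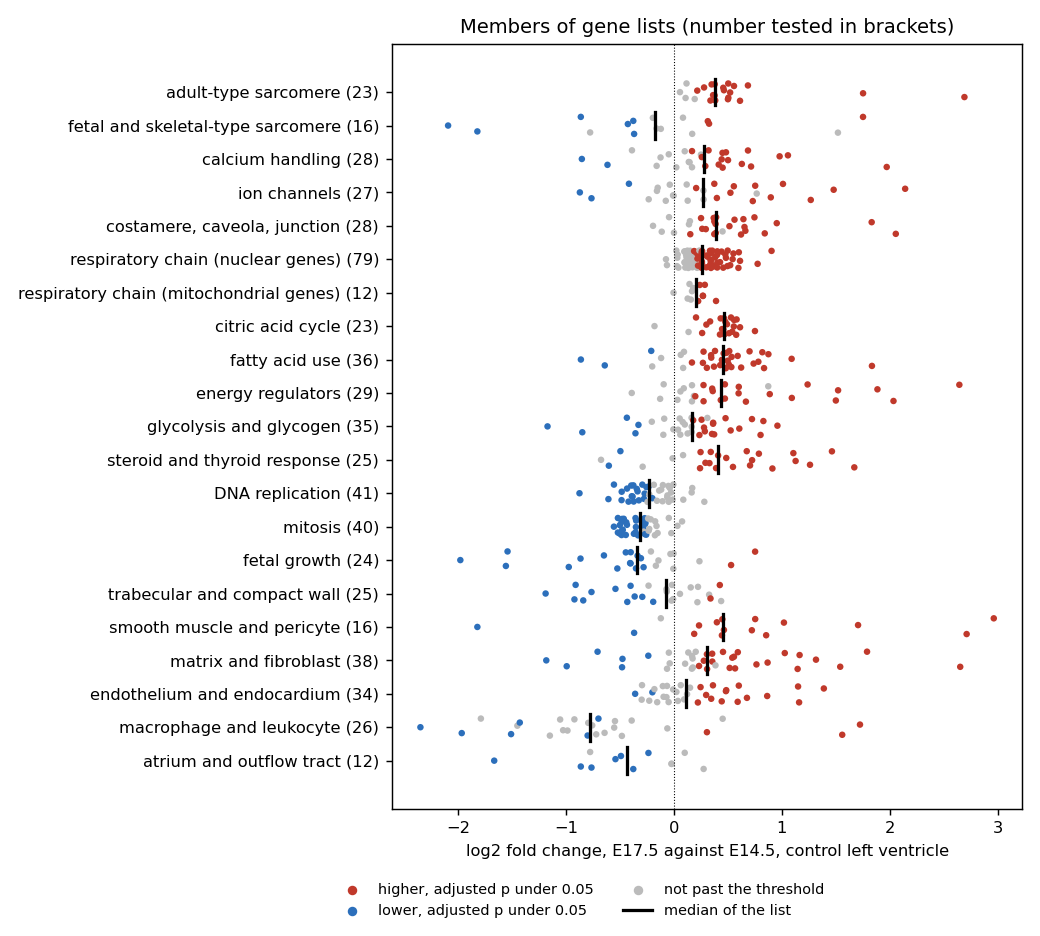
Log2 fold change from E14.5 to E17.5 (x axis) of each tested member of 21 gene lists (rows), 1 point per gene, coloured where the adjusted p was under 0.05, with the median of each list as a black bar. The respiratory chain, citric acid cycle and adult-type sarcomere rows hold no blue point, and the DNA replication and mitosis rows hold no red point.

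Genes that cycle calcium between the cytosol and the sarcoplasmic reticulum rose in number, 16 of 28 tested against 2 that fell (median 0.28). The calcium pump Atp2a2 had 2098 and 1942 CPM at E14.5 and 3381 and 3343 CPM at E17.5 (log2 fold change 0.72 ± 0.07 (SE), adjusted p = 4.10e-04). The release channel Ryr2 rose, with 541 and 455 CPM at E14.5 and 999 and 1104 CPM at E17.5 (log2 fold change 1.06 ± 0.10 (SE), adjusted p = 3.75e-04). Dhrs7c, a reductase of the sarcoplasmic reticulum, rose most in this list, from 27.8 and 28.8 to 117 and 108 CPM (log2 fold change 1.97 ± 0.07 (SE), adjusted p = 2.38e-05). Calsequestrin Casq2 (0.69), the calcium binding protein Hrc (0.63), the exchanger Slc8a1 (0.50) and phospholamban Pln (0.45), which restrains the pump, rose as well. The T-type calcium channel Cacna1h (-0.61) and the ryanodine receptor partner Fkbp1b (-0.85) fell, while Cacna1g, also a T-type calcium channel, rose (0.98).

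Of 27 tested ion channel and gap junction genes 12 rose and 3 fell (median 0.27). Kcnip2, a subunit of the transient outward potassium current, had 7.05 CPM at E13.5, 20.2 and 23.7 CPM at E14.5 and 107 and 90.0 CPM at E17.5 (log2 fold change 2.14 ± 0.11 (SE), adjusted p = 6.72e-05). Of the pore subunits of this current, Kcnd3 fell (-0.87) and Kcnd2 did not pass (-0.01). The potassium channel gene Kcnk3 fell as well (-0.42). The sulfonylurea receptor Abcc8 of the ATP-sensitive potassium channel rose by 1.48, and the inward rectifiers Kcnj12 and Kcnj5 by 1.27 and 1.01. The working gap junction gene Gja1 rose (0.38) and Gja5, the connexin of trabecular and conduction tissue, fell from 209 and 207 to 125 and 123 CPM (log2 fold change -0.76 ± 0.05 (SE), adjusted p = 9.26e-05). Proteins that tie the sarcomere to the membrane and to the neighbouring cell had 21 of 28 with no fall (median 0.39). Cavin4, a muscle caveola protein, had 21.0 and 21.9 CPM at E14.5 and 71.2 and 83.8 CPM at E17.5 (log2 fold change 1.83 ± 0.10 (SE), adjusted p = 6.77e-05). The intercalated disc protein Xirp2 rose by 2.06, dystrophin Dmd by 0.62 and the sarcoglycan Sgcd by 0.75. N-cadherin Cdh2, desmoglein Dsg2 and plakophilin Pkp2, core parts of the disc, did not pass (-0.04, -0.11 and 0.00).

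Genes of mitochondrial fuel use rose. In the citric acid cycle and pyruvate dehydrogenase list 21 of 23 tested genes rose and none fell (median 0.47). Pdha1, the gate from pyruvate into the cycle, had 333 and 323 CPM at E14.5 and 564 and 556 CPM at E17.5 (log2 fold change 0.75 ± 0.06 (SE), adjusted p = 2.62e-04), and citrate synthase Cs rose by 0.53. Of 36 genes of fatty acid uptake, storage and oxidation 28 rose and 3 fell (median 0.45). The fatty acid transporter Cd36 had 152 CPM at E13.5, 326 and 345 CPM at E14.5 and 617 and 595 CPM at E17.5 (log2 fold change 0.84 ± 0.07 (SE), adjusted p = 1.96e-04). Acsl1, which activates fatty acids by joining them to coenzyme A, had 178 and 186 CPM at E14.5 and 408 and 377 CPM at E17.5 (log2 fold change 1.09 ± 0.06 (SE), adjusted p = 8.58e-05), and each E17.5 library was above each earlier one. The lipid droplet protein Plin5 (1.84), lipoprotein lipase Lpl (0.88), the dehydrogenases Acadvl (0.82) and Acadm (0.78) and the muscle transferase Cpt1b (0.49) rose too. The 3 falls were the liver-type transferase Cpt1a (-0.21), the uncoupling protein Ucp2 (-0.86) and Pdk4, a kinase that shuts pyruvate dehydrogenase. Pdk4 fell from 81.7 and 91.2 CPM to 52.5 and 60.0 CPM (log2 fold change -0.64 ± 0.08 (SE), adjusted p = 0.00131).

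Among 29 tested regulators of energy supply and phosphate shuttling 19 rose and none fell (median 0.44). The fatty acid receptor Ppara had 9.17 CPM at E13.5, 7.11 and 6.11 CPM at E14.5 and 25.1 and 29.7 CPM at E17.5 (log2 fold change 2.04 ± 0.13 (SE), adjusted p = 9.93e-05). Its E14.5 levels were the lowest of the 3 stages. Perm1, a muscle regulator of mitochondrial genes, had 42.7 and 48.2 CPM at E14.5 and 138 and 123 CPM at E17.5 (2.83-fold, adjusted p = 6.76e-05). The coactivator Ppargc1b rose (1.09), and its relative Ppargc1a did not pass (0.09). The oestrogen-related receptor Esrra rose (0.60), while Esrrg (-0.13) and Esrrb (-0.39) did not pass. Muscle creatine kinase Ckm had 515 and 543 CPM at E14.5 and 1025 and 959 CPM at E17.5 (log2 fold change 0.89 ± 0.07 (SE), adjusted p = 1.95e-04), and myoglobin Mb rose by 0.60.

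Nuclear genes of the respiratory chain rose in 47 of 79 tested cases with no fall (median 0.26, or 0.17 without E17.5 embryo 2). Sdha of complex II had 826 and 844 CPM at E14.5 and 1338 and 1250.3 CPM at E17.5 (log2 fold change 0.61 ± 0.07 (SE), adjusted p = 6.18e-04). Among the 4 largest rises of the list, with Sdha, were the heart and muscle forms of 3 cytochrome oxidase subunits, for which a ubiquitous form also exists. Cox6a2 had 163 and 175 CPM at E14.5 and 334 and 307 CPM at E17.5 (log2 fold change 0.91 ± 0.06 (SE), adjusted p = 1.37e-04). Cox7a1 rose from 67.4 and 73.6 to 118 and 99.3 CPM (0.60), and Cox8b from 52.4 and 61.4 to 111 and 87.0 CPM (0.78). Their ubiquitous counterparts stayed within narrow ranges over the 4 libraries, 324 to 355 CPM for Cox6a1, 284 to 333 for Cox7a2 and 194 to 215 for Cox8a. None of these counterparts passed (0.03 ± 0.06, 0.03 ± 0.08 and -0.06 ± 0.06, SE; adjusted p from 0.427 to 0.8), and the difference within each pair was not tested. The sign of each of the 3 changed with at least 1 alternative. With length and GC offsets Cox6a1 passed as a rise (0.18 ± 0.05, SE, adjusted p = 0.0275), while Cox7a2 (0.12) and Cox8a (0.04) did not pass. Of 12 tested genes of the mitochondrial genome 6 rose and none fell (median 0.20), led by mt-Nd5 (0.39). This count was 1 without E14.5 embryo 3, 10 without E17.5 embryo 3 and 11 with length and GC offsets. The nuclear count was 21 when all 16 libraries shared 1 fit, 71 without E17.5 embryo 3 and 71 with the offsets, with no fall in any of these fits.

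Glycolysis and glycogen genes were mixed, with 16 of 35 tested higher and 5 lower (median 0.17). The rises were largely forms of muscle, such as enolase Eno3 (0.83), glycogen phosphorylase Pygm (0.80), hexokinase Hk2 (0.72) and phosphofructokinase Pfkm (0.53). The falls included the neural enolase Eno2 (-1.17), the lactate exporter Slc16a3 (-0.36) and the glucose transporters of fetal tissue. Slc2a1 had 232 CPM at E13.5, 160.4 and 155 CPM at E14.5 and 115 and 122 CPM at E17.5 (log2 fold change -0.43 ± 0.05 (SE), adjusted p = 9.35e-04). The insulin-responsive transporter Slc2a4 moved the other way, with 92.2 and 94.5 CPM at E14.5 and 125 and 118 CPM at E17.5 (log2 fold change 0.36 ± 0.05 (SE), adjusted p = 0.0016). For neither transporter did the libraries of the 2 stages overlap. The same held for all 5834 genes that passed and for 71.9% of all genes tested. Targets of hypoxia signalling split, 15 higher and 7 lower of 26 tested (median 0.26), or 11 and 4 without E14.5 embryo 3. The oxygen-sensing hydroxylase Egln3 rose from 28.5 and 33.7 to 113 and 104 CPM (log2 fold change 1.78 ± 0.09 (SE), adjusted p = 6.52e-05) and Vegfa, a growth factor for vessels, by 0.62. Hif1a itself fell (-0.57), as did Slc2a1, Car9 (-0.55) and Bnip3 (-0.21).

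**Figure D3:**
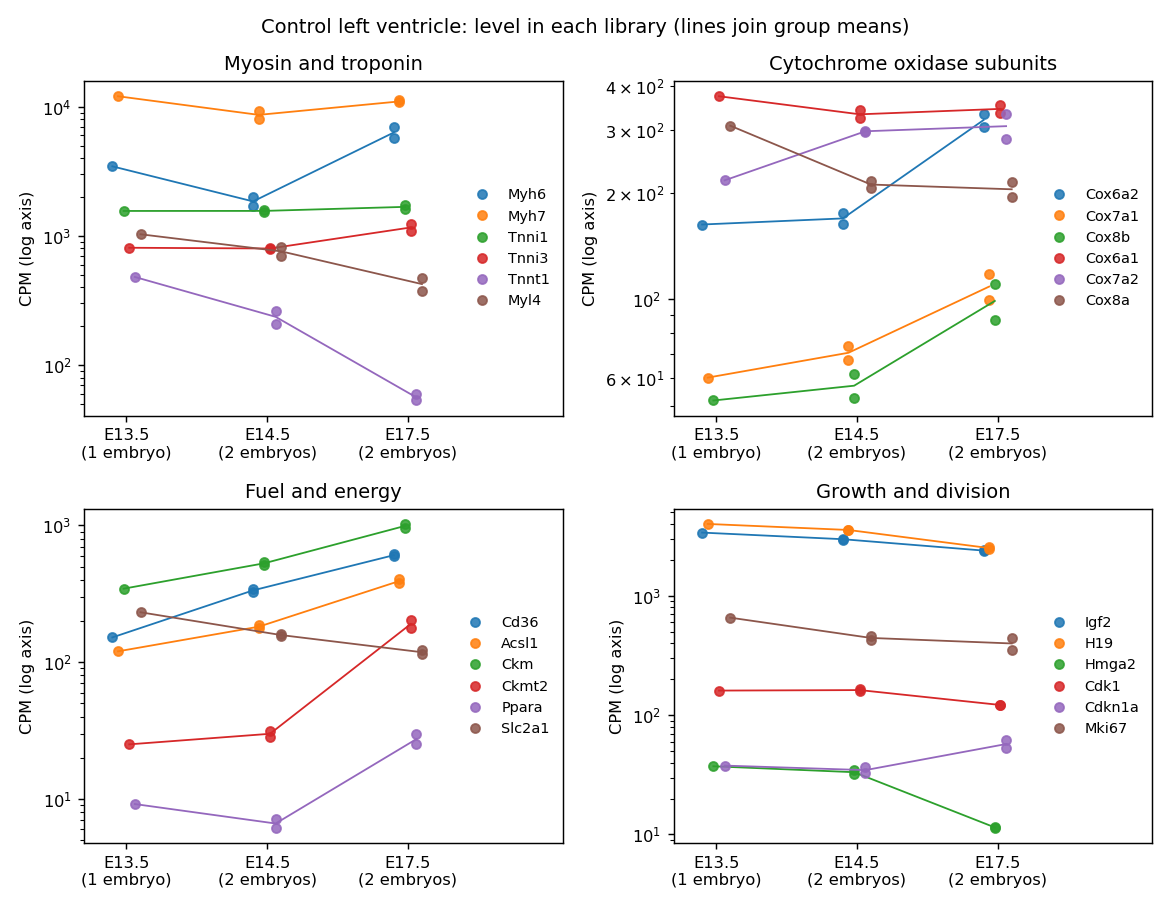
Level in CPM on a log axis of 24 genes in each control left ventricle library at E13.5, E14.5 and E17.5 (x axis), with lines through the group means. Levels of different genes are not per length and are not to be compared. Cox6a2, Cox7a1 and Cox8b rise to E17.5 beside nearly level Cox6a1 and Cox7a2, and Myh6 and Ppara are lowest at E14.5.

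Genes of cell division fell by small amounts. Of 41 tested DNA replication genes 21 fell and none rose (median -0.23), and of 40 mitosis genes 27 fell and none rose (median -0.32). Cdk1, the kinase that drives mitosis, had 159.7 and 165 CPM at E14.5 and 122 and 122 CPM at E17.5 (log2 fold change -0.43 ± 0.04 (SE), adjusted p = 4.81e-04), and the 2 embryos of each stage were close. Cdca8, part of the complex that controls chromosome attachment, had 113 and 112 CPM at E14.5 and 78.1 and 81.1 CPM at E17.5 (log2 fold change -0.52 ± 0.05 (SE), adjusted p = 4.60e-04). Chaf1b, a histone chaperone of replicating DNA, fell from 48.5 and 47.0 to 28.0 and 24.8 CPM (log2 fold change -0.87 ± 0.08 (SE), adjusted p = 3.75e-04), and Rfc3, a subunit of the clamp loader, from 36.6 and 38.4 to 26.2 and 25.5 CPM (-0.55). The proliferation marker Mki67 had 461 and 426 CPM at E14.5 and 350.4 and 447 CPM at E17.5, with E17.5 embryo 3 within the E14.5 range, and did not pass (log2 fold change -0.17 ± 0.11 (SE), adjusted p = 0.261). The helicase genes Mcm2, Mcm4 and Mcm5 were at -0.03, -0.05 and -0.05 and did not pass. Fewer dividing cells and less of these RNAs per cell cannot be told apart in bulk tissue, and the same holds for every list here. When counts of both ventricles were summed, 12 replication genes fell and 1 rose.

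Promoters of the cell division lists were searched for the letters of known cell cycle elements, over all matched members, fallen or not. RefSeq promoters (build GRCm38.p6, 250 bases before to 50 after the start) were matched by symbol for 11219 of the 15441 genes, with 14325 promoters. The E2F letters TTTCCCGC, TTTGGCGC, TTTGCCGC and TTTCGCGC, on both strands, stood in 16 of 42 promoters of DNA replication genes (38.1%) against 3.70% of all. The cell cycle homology region, TTTGAA or TTCGAA, stood in 27 of 36 promoters of mitosis genes (75%) against 13.9% of all, and the CCAAT letters in 80.6% against 37.1%. These shares follow how the lists were made as well as the data, and matches are letters only. Over all genes that fell, with 2604 promoters, the shares were near those of all genes tested. They were 4.95% for the E2F letters, 16.0% for the homology region and 39.6% for the CCAAT letters. Within the lists, holding the letters did not go with a fall. Of 16 replication genes with E2F letters 7 fell, and of 18 without them 10 fell. Among mitosis genes 14 of 25 with the homology region fell and 8 of 9 without it. The nuclear receptor letters TCAAGGTCA, the site of the oestrogen-related receptors, stood in 0.272% of all promoters and in few of the metabolic ones. They were in none of the 32 and 48 promoters of the fatty acid and energy regulator lists, in 2 of 70 of the nuclear respiratory chain (2.86%), in 1 of 26 of the citric acid cycle (3.85%) and in 2 of 30 of the hormone-response list (6.67%). The promoters of Rfc3 and Cdca8 are printed as the members with the smallest adjusted p that hold the letters, 5′ to 3′ along the gene. That of Cdca8 was chosen after the shares were seen. Capitals mark the E2F letters in Rfc3 (chr5:151651159-151651458, minus strand) and the homology region and CCAAT letters, here as ATTGG on the other strand, in Cdca8 (chr4:124936868-124937167, minus strand).
Rfc3: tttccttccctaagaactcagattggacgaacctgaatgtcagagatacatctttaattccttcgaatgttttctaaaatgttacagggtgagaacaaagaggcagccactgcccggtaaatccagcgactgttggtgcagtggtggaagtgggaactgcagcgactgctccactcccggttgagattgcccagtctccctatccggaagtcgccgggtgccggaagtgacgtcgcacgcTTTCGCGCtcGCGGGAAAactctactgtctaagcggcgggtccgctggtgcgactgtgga
Cdca8: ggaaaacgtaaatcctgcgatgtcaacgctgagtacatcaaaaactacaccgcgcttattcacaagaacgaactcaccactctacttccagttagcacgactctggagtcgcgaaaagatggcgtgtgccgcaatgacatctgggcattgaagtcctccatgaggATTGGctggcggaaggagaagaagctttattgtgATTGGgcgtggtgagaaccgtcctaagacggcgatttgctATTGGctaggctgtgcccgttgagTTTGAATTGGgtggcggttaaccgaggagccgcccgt
In Rfc3 the E2F letters stand at 2 places next to the start, TTTCGCGC beginning 10 bases before it and GCGGGAAA at it. In Cdca8 the letters ATTGG occur at 4 places, the last of which shares its first base with the last base of the homology region.

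Fetal growth genes fell in 15 of 24 tested cases and rose in 2 (median -0.34). The imprinted growth factor Igf2 had 3019.9 and 2947 CPM at E14.5 and 2387 and 2405 CPM at E17.5 (log2 fold change -0.34 ± 0.06 (SE), adjusted p = 0.00544), and its neighbour H19, a long non-coding RNA, had 3591 and 3539.7 CPM at E14.5 and 2545 and 2482 CPM at E17.5 (log2 fold change -0.52 ± 0.06 (SE), adjusted p = 8.81e-04). The chromatin protein Hmga2 fell from 34.7 and 31.8 to 11.6 and 11.3 CPM (log2 fold change -1.56 ± 0.09 (SE), adjusted p = 8.58e-05). Lin28b, an RNA-binding protein that blocks let-7 maturation, fell from 11.6 and 11.8 to 5.94 and 7.1 CPM (log2 fold change -0.86 ± 0.13 (SE), adjusted p = 0.00199). The growth factors Mdk and Ptn, midkine and pleiotrophin, fell (-1.54 and -0.65), whereas the imprinted gene Dlk1 rose (0.75). Brakes and early regulators of the cell cycle were divided, with 8 higher and 5 lower of 20 tested, or 8 and 2 without E14.5 embryo 2 and 6 and 3 without E14.5 embryo 3. The inhibitor Cdkn1a had 32.5 and 36.7 CPM at E14.5 and 61.5 and 53.0 CPM at E17.5 (log2 fold change 0.71 ± 0.10 (SE), adjusted p = 0.00154), while the imprinted inhibitor Cdkn1c fell from 306 and 319.7 to 163 and 160.0 CPM (log2 fold change -0.97 ± 0.05 (SE), adjusted p = 7.00e-05). Cyclin Ccnd1 and the kinase Cdk6 rose (0.46 and 0.86), and Cdk4 fell (-0.55).

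The core heart transcription factors moved in both directions, with 7 higher and 7 lower of 28 tested (median -0.03). The counts were 4 and 4 without E14.5 embryo 3, 5 and 4 without E14.5 embryo 2, 4 and 5 without E17.5 embryo 3, and 2 and 3 with all 16 libraries in 1 fit. Gata4, Mef2c and Tbx5 did not pass (-0.01, 0.01 and -0.10). Hand1 had 38.7 CPM at E13.5, 22.2 and 23.7 CPM at E14.5 and 14.1 and 14.4 CPM at E17.5 (log2 fold change -0.70 ± 0.09 (SE), adjusted p = 0.00112), a lower level at each later stage. Irx6, a homeobox gene, fell by a larger amount from a low level (-2.21). Genes of trabecular and compact wall growth fell in 11 of 25 tested cases and rose in 2 (median -0.07), or 7 and 0 when all 16 libraries shared 1 fit. The natriuretic peptide gene Nppa, made by trabecular muscle, had 219 CPM at E13.5, 120.2 and 117 CPM at E14.5 and 87.5 and 77.9 CPM at E17.5 (log2 fold change -0.54 ± 0.07 (SE), adjusted p = 9.20e-04). Nppb, its relative, had 125 and 188 CPM at E14.5 and 249 and 182 CPM at E17.5, overlapping, and did not pass (adjusted p = 0.101). The guidance genes Slit2 and Robo1 fell (-0.91 and -1.19), as did the neuregulin receptors Erbb2 and Erbb4 (-0.43 and -0.36). Of 12 tested atrial and outflow tract genes, which would mark carried-over atrial tissue and are partly fetal ventricular genes too, 7 fell and none rose, and their summed level was 1443 and 1280.0 CPM at E14.5 and 831 and 887 CPM at E17.5. This summed level moved with the falls of Myl4, Myl7, Nppa and Gja5, which are members of it, and its part in them was not tested. The count was 3 with all 16 libraries in 1 fit, and the median of -0.43 was -0.21 without E14.5 embryo 2. In the right ventricles of the same embryos, where 18.6% of all genes tested passed, none of this list did (median -0.13). In the test of the difference between the ventricles 2 of the list had a lower change on the left.

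Genes known to respond to glucocorticoid or thyroid hormone rose in 19 of 25 tested cases and fell in 2 (median 0.41). Klf9, a target of both hormones, had 4.82 and 6.38 CPM at E14.5 and 19.5 and 16.9 CPM at E17.5 (log2 fold change 1.67 ± 0.15 (SE), adjusted p = 2.93e-04). The receptor cochaperone Fkbp5, a glucocorticoid target, had 35.3 and 36.7 CPM at E14.5 and 66.0 and 60.0 CPM at E17.5 (log2 fold change 0.79 ± 0.08 (SE), adjusted p = 4.52e-04), and Zbtb16, another, rose by 1.13. Hr, a thyroid hormone target, rose by 1.47, and the glucocorticoid receptor Nr3c1 by 0.33. The receptors Thra and Thrb did not pass (-0.01 and -0.67), and Angptl4 and Dio2 fell (-0.60 and -0.49). Receptors and effectors of autonomic and hormone signals rose in 11 of 22 cases and fell in 4 (median 0.32). The angiotensin receptor Agtr2 went from 6 and 3 counts at E14.5 to 70 and 65 counts at E17.5 (16.0-fold, adjusted p = 3.45e-04), a large ratio on a low level. The muscarinic receptor Chrm2 (0.92) and the beta-adrenergic receptor Adrb1 (0.78) rose, and the endothelin receptor Ednrb fell (-0.95).

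Of 18 splicing and RNA regulators 7 rose and 2 fell (median 0.12). The kinase Dmpk had 60.4 and 60.3 CPM at E14.5 and 226 and 227 CPM at E17.5, with the smallest adjusted p of the genes named here (log2 fold change 1.89 ± 0.05 (SE), adjusted p = 3.48e-06). Rbm20, which sets titin splicing, rose (0.60), as did Mbnl2 (0.43), and Ptbp2 fell (-0.59). Immediate early and heat shock genes, which also mark handling of tissue, rose in 11 of 24 cases and fell in 1 (median 0.35, or 0.13 without E14.5 embryo 2 and 0.53 without E14.5 embryo 3). The rises were led by the flow-responsive factors Klf2 and Klf4 (1.15 and 1.13). The heat shock genes Hspa1a (0.98), Hspa1b (0.91), Hsph1 (0.64) and Hspa8 (0.51) rose too, as did Dusp1 (0.73), Ier3 (0.69) and Jun (0.45). Fos, Egr1 and Junb did not pass (0.12, -0.13 and -0.07), nor did Hspb1 and Dnajb1 (0.02 and -0.01), and the fall was Egr2 (-1.86).

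Genes of vessels and connective tissue also changed. Smooth muscle and pericyte genes rose in 13 of 16 tested cases and fell in 2 (median 0.46). Myh11, the myosin of mature smooth muscle, had 1.14 CPM at E13.5, 2.73 and 4.11 CPM at E14.5 and 29.6 and 25.0 CPM at E17.5 (log2 fold change 2.96 ± 0.18 (SE), adjusted p = 8.88e-05). The pericyte genes Higd1b and Abcc9 rose (2.71 and 0.75), and the falls were Cnn1 and Tagln, which fetal heart muscle makes too. Some rises were also of genes not limited to vessels. Des (0.46) stands in the adult-type sarcomere list as well, Myocd (0.72) in the heart transcription factor list and Abcc9 in the ion channel list. Acta2 did not pass (-0.12). Matrix and fibroblast genes rose in 21 of 38 cases and fell in 6 (median 0.31). The fibroblast genes Clec3b and Scara5 had the largest rises (2.65 and 1.79). Elastin Eln rose (1.15), and tenascin Tnc and fibronectin Fn1, matrix of the developing heart, fell (-0.99 and -0.48). The main fibrillar collagens moved little, with Col1a1 at 0.31, past the threshold, and Col3a1 at 0.20, which did not pass.

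Of 20 basement membrane genes 7 rose and 2 fell (median 0.17). With length and GC offsets 5 rose and 5 fell (median 0.08), without normalisation factors 6 and 5, and without E14.5 embryo 3 the rises were 4. In the right ventricles of the same embryos 2 rose and 4 fell (median -0.09), and with both ventricles summed 3 rose and 3 fell. In the test of the difference between the ventricles, which 5.17% of all genes passed, 5 members changed more on the left. On the left the muscle integrin Itga7 had 13.6 and 16.3 CPM at E14.5 and 48.3 and 44.6 CPM at E17.5 (log2 fold change 1.62 ± 0.10 (SE), adjusted p = 8.58e-05). The laminins Lama2 and Lamb2 of muscle rose (0.41 and 0.59). Endothelial and endocardial genes rose in 15 of 34 cases and fell in 2 (median 0.11), with 5 falls without E14.5 embryo 2 and 4 without E17.5 embryo 2. The water channel Aqp1 had 66.8 and 78.3 CPM at E14.5 and 159.5 and 169 CPM at E17.5 (log2 fold change 1.16 ± 0.07 (SE), adjusted p = 9.93e-05), and the capillary genes Cd300lg and Gpihbp1 rose (1.39 and 0.87). The general endothelial markers Pecam1 and Cdh5 did not pass (0.15 and 0.10), and Tie1 fell (-0.20). Epicardial genes were mixed, 3 higher and 4 lower of 17 tested (median -0.09, or 0.15 without E14.5 embryo 3). The summed markers of the endothelial list were 3155 and 3416 CPM at E14.5 and 3963 and 3712 CPM at E17.5, and those of the smooth muscle list 2815 and 3003 against 3549 and 3316 CPM.

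Of 3 tested genes of primitive red cells 2 fell, and those of definitive red cells were mixed. The embryonic globin Hba-x fell by 3.95 on the log2 scale, as Hbb-y did, and the summed level of the primitive erythroid genes was 53.6 and 42.1 CPM at E14.5 and 1.68 and 5.22 CPM at E17.5. Definitive erythroid genes summed to 1123 and 1318 CPM at E14.5 and 1269.8 and 1486 CPM at E17.5, with 3 of 15 tested higher and 2 lower (median -0.28). The number lower was 7 without E14.5 embryo 2, 5 without E17.5 embryo 3 and 1 without E17.5 embryo 2. The adult globin Hbb-bt fell (-0.62, adjusted p = 0.0246). The adult globin Hba-a1, whose reads may be shared with its copy Hba-a2, did not pass (log2 fold change -0.28 ± 0.15 (SE), adjusted p = 0.167). Macrophage and leukocyte genes varied with the libraries used. Their summed level was 402 CPM in E14.5 embryo 3 against 203 CPM in E14.5 embryo 2, 231 and 212 CPM at E17.5 and 256 CPM at E13.5. With the 4 libraries 6 of 26 tested fell and 3 rose, but 3 fell without E14.5 embryo 3 and 21 fell without E14.5 embryo 2. Without E17.5 embryo 2 or embryo 3 it was 3 and 2, without a count filter 19 and with a term for sex 17. The median of the list was -0.77, or -0.05 without E14.5 embryo 3. Within this list the scavenger receptor Lyve1, also a lymphatic marker, had 8.8 and 8.52 CPM at E14.5 and 29.4 and 28.5 CPM at E17.5 (log2 fold change 1.72 ± 0.09 (SE), adjusted p = 6.77e-05), and the antigen presentation gene H2-Ab1 had 2.21 and 3.36 CPM at E14.5 and 0.589 and 0.518 CPM at E17.5 (log2 fold change -2.35 ± 0.31 (SE), adjusted p = 0.00135). Neither gene overlapped between the stages, as was so for every gene that passed, whereas the summed level of the list did overlap.

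**Figure D4:**
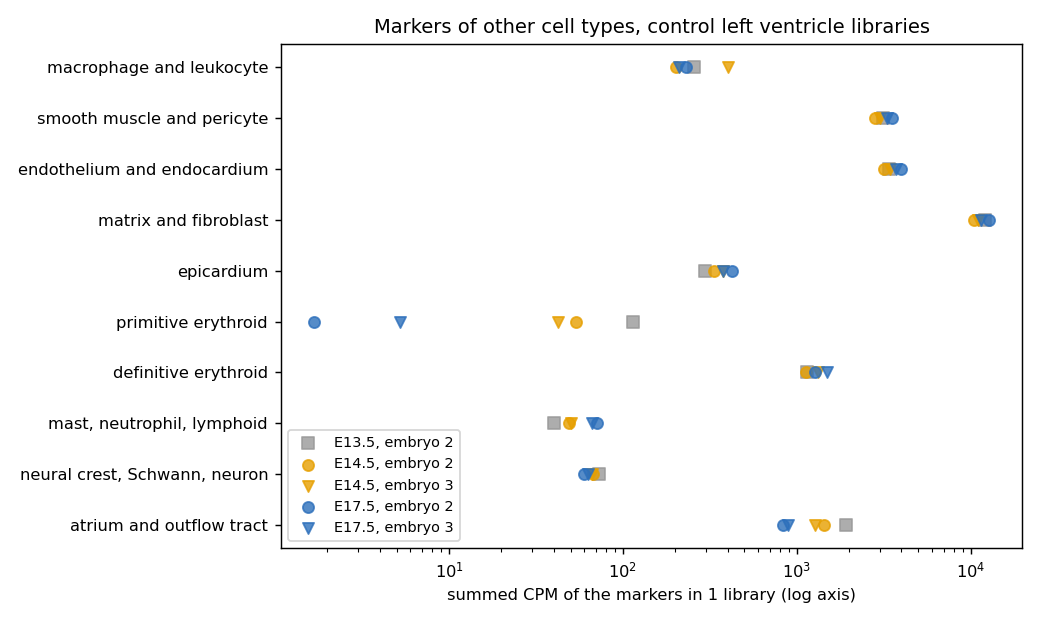
Summed CPM (x axis, log scale) of the markers of 10 other cell types (rows) in each control left ventricle library, coloured by stage and shaped by embryo. E14.5 embryo 3 stands apart in the macrophage row at 402 CPM, and the primitive erythroid row falls with stage to 1.68 and 5.22 CPM at E17.5.

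The right ventricles of the same embryos gave 2905 calls among 15624 genes tested (18.6%). Of the genes tested in both ventricles, 2318 were called in both with the same direction, which is 40.1% of the 5782 left calls and 81.0% of the 2860 right calls, and 2 were called in opposite directions. The right count fell to 1122 without E17.5 embryo 2. That right library comes from a male embryo by Ddx3y and yet had 35.2 CPM of Xist, where the other libraries of male controls had at most 1.26 CPM. Myh6, Ckmt2 and Kcnip2 rose in the right ventricle by 1.48, 2.72 and 2.04, beside 1.75, 2.65 and 2.14 on the left. In the right ventricle 16 citric acid cycle genes rose, 26 nuclear respiratory genes rose and 6 mitosis genes fell. On the left these counts were 21, 47 and 27, where more genes passed in all (37.8% against 18.6%). The medians of the 3 lists were 0.55, 0.43 and -0.17 on the right, beside 0.47, 0.26 and -0.32 on the left. Of the DNA replication genes 2 fell and 1 rose on the right (median -0.06), beside 21 falls and no rise on the left (median -0.23). Cdk1 was at -0.02 on the right (adjusted p = 0.896), and the difference between the ventricles was -0.40 (adjusted p = 0.036).

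The difference between the ventricles was tested with the embryo as a block, and 829 of 16021 genes passed (5.17%), 619 with a higher and 210 with a lower change on the left. By smallest p, Lnpep (0.95), Hipk2 (1.08), Myom2 (1.10) and Bmpr2 (1.05) were among the genes with more rise on the left, and the connective tissue growth factor Ccn2 (-0.74) had less. Hipk2 had 32.9 and 21.4 CPM at E14.5 and 47.1 and 69.6 CPM at E17.5 on the left, and 52.9 and 40.0 against 40.6 and 55.4 CPM on the right. In both embryos it was lower on the left than on the right at E14.5 and higher on the left at E17.5. Myom2 had 168 and 183 CPM at E14.5 and 594 and 484 CPM at E17.5 on the right, so that it was lower on the left at both stages and rose more. Of the metabolic lists, those of the respiratory chain and citric acid cycle held no such gene, and the fatty acid list held 1. The glycolysis and glycogen list held 2 and the energy regulator list 4, all with a higher change on the left. These 2 lists had 35 and 29 genes tested in the left ventricle. Of the cell division lists, with 41 and 40 genes tested there, DNA replication held 3 and mitosis 4, all with a lower change on the left. The difference moved with transcript length. Across genes its Spearman correlation with the length of the longest transcript was 0.412, where the left change had 0.187 and the right change -0.116, and genes are not independent replicates. The median transcript length was 7667 bases for genes with more change on the left, 1674 bases for those with less and 3251 bases for all genes with a length. With length and GC offsets per library, an alternative chosen after seeing the data, 123 genes passed in place of 829 and 107 of the 829 remained. The count was 25 without E17.5 embryo 2, 96 without E17.5 embryo 3 and 2459 without E14.5 embryo 3.

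**Figure D5:**
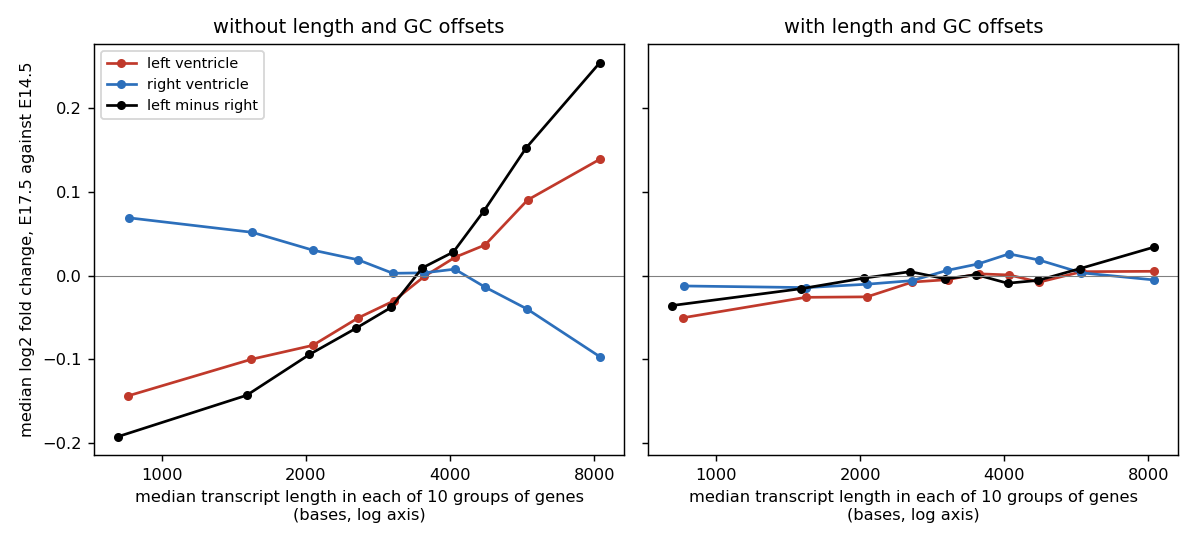
Median log2 fold change from E14.5 to E17.5 (y axis) in 10 equal groups of genes by transcript length (x axis, bases, log scale) for the left ventricle, the right ventricle and the difference between them, without (left panel) and with (right panel) length and GC offsets. Without the offsets the difference goes from -0.19 in the shortest to 0.25 in the longest group, and with them from -0.04 to 0.03.

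The HLHS left ventricles, 1 embryo of each litter with no replicate, show the control changes in hearts that took no part in the test. Of the genes that rose in controls, 90.2% were higher at E17.5 than at E14.5 in the HLHS pair, against 53.0% of all genes tested. Of those that fell, 85.5% were lower, against 47.0% of all. Both pairs come from the same 2 litters, so these shares do not separate stage from litter. Ckmt2 had 5.87 CPM at E14.5 and 33.9 CPM at E17.5 in the HLHS left ventricles, a similar ratio on a lower level than in controls. Myh6 had 1210.0 CPM at E14.5 and 1789 CPM at E17.5, beside 1999 and 1698 and 6924 and 5712 CPM in controls. Pdk4, which fell in controls, had 60.5 CPM at E14.5 and 77.1 CPM at E17.5.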

How the data were processed

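Left and right ventricles of 8 embryos were sequenced, and the 4 control left ventricles of E14.5 and E17.5 are compared here. The authors deposited raw read counts per gene, as whole numbers. Per the submitters' processing notes the build was mm9 and the tools included HTSeq 0.5.4p5, TopHat2 2.0.9, edgeR 3.4.2 and Picard. Annotation, strand setting and the handling of duplicates are not stated, so overlapping, antisense and near-identical genes are uncertain. The table lists 37991 Ensembl genes, 32919 of them (86.6%) with a symbol, and genes without one hold 0.492% of counts.

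Counts were tested with edgeR 4.0.16 in R 4.3.3 by its quasi-likelihood functions glmQLFit and glmQLFTest. TMM scaling was used, filterByExpr removed low genes (count under 10, total under 15), and p-values were adjusted by Benjamini-Hochberg over all genes tested, with 0.05 as the threshold. The SE of a log2 fold change is its size divided by the square root of F. CPM use TMM factors over all 16 libraries and are not per length, and PCR copies could not be recognised. Samples were grouped by the phenotype, side and stage in the labels, with 2 embryos a stage, and the right ventricle was fitted likewise. The difference between ventricles was fitted over 8 libraries with the embryo as a block. On simulated data 95% of 200 genes changed 2-fold were recovered in the left ventricle among 15230 genes, with 5.47% of calls false. In the test of the difference 89% were recovered among 15776 genes. The changed genes were drawn from those of higher counts, and no litter effect or trend with transcript length was simulated. These rates are therefore not the error rates of the real comparison.

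The members and the 37 gene lists were chosen with earlier results of these data known. Genes named are the 12 largest rises and falls among genes averaging at least 3 log2 CPM, up to 4 members of each list with at least 3 calls, a set of fixed genes, up to 10 genes of the ventricle difference by smallest p, and list members given as further examples, which were chosen after their values were seen. Transcript length and GC come from GENCODE M21 (14913 of the 15441 genes, 96.6%). The alternatives were DESeq2 1.42.0 and its size factors, limma-voom (limma 3.58.1), other count filters, no normalisation factors, globin genes left out, the E13.5 library or all libraries added, summed ventricles, a replicate block, a term for sex, each embryo left out, and length and GC offsets, the last chosen after seeing the data. Embryo numbers did not pair the 2 litters. The authors' table of comparisons and protein sequences were not analysed here.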

Additional observations from a re-analysis of the deposited data

Results flagged for a closer look

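The change from E14.5 to E17.5 differed between the left and the right ventricle for 829 genes in the edgeR test of the difference itself. Of the 619 with a higher change on the left, 359 were called higher and 19 lower in the left ventricle alone. Of all genes tested there, 20.1% were called higher and 17.7% lower. In the right ventricle 51 of the 619 were called higher and 97 lower, where 18.6% of all genes were called either way. The same libraries enter these tests, so the counts are no separate support. The 10 genes with the smallest p are given as left minus right on the log2 scale with their SE. Myom2, a structural protein of the sarcomere's M-band, was at 1.10 ± 0.10, Hipk2, a nuclear kinase, at 1.08 ± 0.09 and the receptor Bmpr2 at 1.05 ± 0.10. The zinc finger gene Zfp871 was at 1.01 ± 0.10, the aminopeptidase Lnpep at 0.95 ± 0.08 and Btbd7 at 0.82 ± 0.08. Soga1 (0.81 ± 0.08), Tnrc18 (0.78 ± 0.07) and 4931406P16Rik (0.73 ± 0.07) completed the genes with a higher change on the left. The matrix protein gene Ccn2, at -0.74 ± 0.07, had a lower one. Tnrc18 was not called in the left ventricle (log2 fold change 0.19, adjusted p = 0.366), and on the right it was at -0.57. Ccn2 had 44.3 and 86.6 CPM at E14.5 and 114 and 90.4 CPM at E17.5 on the left, where E14.5 embryo 3 lay close to E17.5 embryo 3, and 40.9 and 78.3 against 183 and 135 CPM on the right. The number of genes called depends on transcript length offsets and on single libraries, as the report gives. These 10 genes kept their direction and their call with the offsets and without each embryo in turn.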

How the results depend on the processing

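In the left ventricle the count of 5834 genes stayed within 1.5 times under the 17 alternatives, from 4053 without E14.5 embryo 3 to 7648 with a term for sex. DESeq2 gave 4283. With a replicate block on the embryo number it was 4631. The numbers do not mark a pairing, since deviations from the group means of same-numbered embryos correlated at -0.438 and those of same-sex embryos at 0.438, which with 2 embryos a stage is the same value with its sign changed. The term for sex is thus the crossed pairing. Of 2785 named gene values under alternatives 2738 kept direction and side of the threshold, 21 lost the call, 14 gained one and 12 turned sign. Sign changes touched genes that had not passed. Without normalisation factors Tnni1 was at -0.0129, Cox6a1 at -0.0658 and Cox7a2 at -0.0693, and with length and GC offsets Cox8a was at 0.0382. Leaving out each embryo in turn gave -0.0046 to 0.0767 for Cox6a1, -0.0849 to 0.142 for Cox7a2 and -0.13 to 0.0092 for Cox8a. For the sex-linked genes it gave -8.55 to 10.03 for Xist and -9.14 to 13.13 for Ddx3y, which was at 0.59 with limma-voom. Of the named genes, Spp1 lost its call under DESeq2, limma-voom, without E14.5 embryo 3 and without E17.5 embryo 3.

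The right ventricle gave 1122 to 3346 calls with 1 embryo left out and 1945 with a replicate block. The difference between the ventricles gave 197 calls with DESeq2, 510 without a count filter, 123 with length and GC offsets and 25 to 2459 with 1 embryo left out, and the cause was not tested. Of 629 list medians under alternatives 149 moved by more than the spread between embryos, and epicardial, valve, cardiac transcription factor, neural and sex-linked lists changed sign in at least 1, as did primitive erythroid genes with globins left out. With 1 embryo left out, the lone embryo of a stage is assumed to vary like the other stage. With 2 embryos and 1 litter a stage, and from 18179762 to 28648645 counts a library, changes of genes near the count filter rest on few reads.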

Other observations

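Smaller groups of cells in the control left ventricle moved as follows. Of the cushion and valve mesenchyme genes 5 of 19 tested rose and 7 fell (median -0.26). Without E14.5 embryo 3 the counts were 2 and 9, without E17.5 embryo 2 they were 3 and 6, and without E17.5 embryo 3 they were 3 and 4. The cartilage collagen Col2a1, a gene of early valve cushions, had 21.6 CPM at E13.5, 5.38 and 4.11 CPM at E14.5 and 0.463 and 0.438 CPM at E17.5 (log2 fold change -3.40 ± 0.27 (SE), adjusted p = 2.13e-04), a fall to 11 counts in each E17.5 library. The linker protein Hapln1 and versican Vcan fell with it (-1.43 and -0.58), and aggrecan Acan rose from low levels (0.361 and 0.509 to 3.66 and 3.39 CPM). Among mast cell, neutrophil and lymphoid genes 5 of 10 tested rose and 2 fell, and the mast cell proteases Tpsb2 and Cma1 had 2.05 and 3.19 CPM at E14.5 and 12.9 and 9.73 CPM at E17.5, and 2.33 and 2.58 CPM at E14.5 and 8.59 and 7.45 CPM at E17.5. Both were below 1 CPM in the E13.5 library.

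In the neural crest, Schwann and neuron list 4 of 11 tested rose and 2 fell, or 2 and 2 without E17.5 embryo 2. The noradrenaline enzyme Dbh and the autonomic factor Phox2a rose (1.05 and 1.58), while the growth cone protein Gap43 fell from 21.5 and 23.7 to 10.1 and 9.89 CPM (log2 fold change -1.20 ± 0.10 (SE), adjusted p = 2.24e-04). In the complement list 3 of 10 tested rose and 0 fell, the rises being C3, C1s1 and C1ra, or 5 rises without E14.5 embryo 3. Genes of other organs, a check for carried-over tissue, held 5 that could be tested, of which Krt14 rose and Myog fell, and summed to 3.7 and 3.9 CPM at E14.5 and 5.68 and 17.8 CPM at E17.5, the last in embryo 3. With 1 embryo fewer 8 could be tested, of which 4 rose without E14.5 embryo 2, 3 without E14.5 embryo 3 and 4 without E17.5 embryo 2.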
